A study of Mus musculus with 2 samples.

Results

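The mitochondrial solute carriers of the Slc25 family were compared between 2 pools of mouse cerebral cortex RNA, each hybridised to its own Affymetrix expression array. The knockout-titled pool combined 3 males whose sample title says KO and names no gene. The gene taken as knocked out was Gnmt, that of the glycine methylating enzyme that uses S-adenosylmethionine. The wild-type pool combined 3 wild-type males, and mice of both pools were 4 weeks old with the strain given as 129/B6. The label for genotype calls the knockout-titled sample wild-type, so grouping followed the titles, and the labels do not describe the allele. Members were all genes whose single symbol in the platform's annotation table starts with Slc25a. They were 44 of 18193 named genes, with 93 of the 34945 probe sets that carry 1 symbol. With 1 array per genotype no difference could be tested, and pooling hid the spread between mice.

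The carriers of this family sit mostly in the inner mitochondrial membrane, where each passes a small set of metabolites between the cytosol and the matrix. They exchange ADP for ATP, bring in phosphate, shuttle reducing equivalents and amino acids, and supply the matrix with cofactors and iron. In the brain they support the ATP supply of neurons and the handling of glutamate and aspartate. A bulk signal cannot tell fewer cells of a type from less RNA per cell.

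Signals are linear units, and a floor of 64.2 units, the 40th percentile of all signals, took the place of detection calls. A gene counted as measured when a probe set reached the floor on both arrays, and its brightest such probe set stood for it. The log2 ratio of knockout-titled over wild-type signal was centred on its median over all measured probe sets. Of the 44 carriers, 38 were measured, 1 reached the floor in the knockout-titled pool alone and 5 reached it in neither pool. Of all 18193 named genes, 12251 were measured. The floor was reached by 63.1% of probe sets on the knockout-titled array and 56.9% on the wild-type array. Signal over the floor in the knockout-titled pool alone was thus the likelier outcome for any probe set. The median signal of all probe sets was 124.9 units on the knockout-titled array and 92.0 units on the wild-type array. Neuron markers were measured in both pools, 8 of 8 with a probe set. Among them, Slc17a7 gave 5652 units in the knockout-titled pool and 4892 units in the wild-type pool. By their brightest probe sets, Tbr1 had a log2 ratio of 1.06 and Neurod6 one of -1.61, and the rest lay between -0.11 and 0.20. Other measured probe sets of the rest ran from -0.35 (Gad1) to 2.01 (Gad2). The 6 pituitary hormone genes summed to 724.7 units in the knockout-titled pool and 31335 units in the wild-type pool, and 3 of them were below the floor in the knockout-titled pool alone. Gnmt itself, with 1 probe set, had 21.5 units in the knockout-titled pool and 10.0 units in the wild-type pool, both under the floor, so it checked neither label.

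Promoter stretches are shown for 3 carriers that were higher in the knockout-titled pool and for Slc25a4, the main ADP/ATP carrier of heart, muscle and brain, which lay within 1.5-fold. Each run holds the 250 bases before the transcript start, from RefSeq on GRCm38.p6, read 5′ to 3′ on the gene's own strand. The stretches lie on the minus strand at chr14:75787038-75787287 for Slc25a30, chr9:97111042-97111291 for Slc25a36, chr8:70212282-70212531 for Slc25a42 and chr8:46211063-46211312 for Slc25a4. Capitals mark matches on either strand to the GC box GGGCGG, the CCAAT box CCAAT, the cyclic AMP response element TGACGTCA or the E-box CACGTG, and 0 of the matches overlapped.
Slc25a30: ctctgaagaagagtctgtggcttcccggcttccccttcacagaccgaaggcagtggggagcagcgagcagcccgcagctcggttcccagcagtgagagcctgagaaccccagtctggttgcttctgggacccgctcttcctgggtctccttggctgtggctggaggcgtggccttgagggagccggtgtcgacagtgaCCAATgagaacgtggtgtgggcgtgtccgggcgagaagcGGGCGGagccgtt
Slc25a36: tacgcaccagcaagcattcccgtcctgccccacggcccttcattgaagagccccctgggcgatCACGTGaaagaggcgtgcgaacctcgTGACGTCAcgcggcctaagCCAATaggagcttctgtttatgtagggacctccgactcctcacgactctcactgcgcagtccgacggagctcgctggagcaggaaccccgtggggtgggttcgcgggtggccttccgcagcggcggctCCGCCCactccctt
Slc25a42: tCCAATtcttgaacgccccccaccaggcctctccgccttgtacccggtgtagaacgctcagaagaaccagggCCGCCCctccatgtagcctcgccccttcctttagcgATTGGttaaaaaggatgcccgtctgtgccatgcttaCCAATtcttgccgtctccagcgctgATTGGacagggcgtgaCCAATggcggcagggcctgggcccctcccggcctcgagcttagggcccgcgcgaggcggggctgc
Slc25a4: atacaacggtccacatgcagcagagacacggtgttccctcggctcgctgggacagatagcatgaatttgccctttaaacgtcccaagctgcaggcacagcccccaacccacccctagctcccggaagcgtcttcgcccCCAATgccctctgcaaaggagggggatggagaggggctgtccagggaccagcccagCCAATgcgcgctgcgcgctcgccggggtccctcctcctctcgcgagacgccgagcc
Slc25a36 held 1 match to each of the 4 motifs, while Slc25a30 held 1 GC box and 1 CCAAT box. Slc25a42 held 5 CCAAT boxes and 1 GC box, and Slc25a4 held 2 CCAAT boxes and 0 GC boxes. A promoter was listed for 34 of the 44 carriers. The GC box was found in 25 of them (73.5%), against 35.4% of all 27025 genes listed and 45.8% of the protein-coding ones. The E-box was found in 7 carriers (20.6%), against 6.86% of all genes and 7.61% of coding genes. The CCAAT box was found in 17 carriers (50.0%) and 37.5% of all genes, and the cyclic AMP response element in 2 carriers, Slc25a36 and Slc25a25, and 1.77% of all genes. A match is a description of the letters in these windows.

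Most carriers lay within 1.5-fold between the pools, and those beyond it were nearly all higher in the knockout-titled pool. Of the 38 measured carriers, the knockout-titled pool had 7 higher by 1.5-fold or more, or 18.4%, where 12.5% of all 12251 measured genes were. Only Slc25a18 was at least 1.5-fold lower, or 2.63%, where 18.3% of all genes were. With quantile normalization the counts were 9 higher and 3 lower, where 11.0% and 21.5% of all genes were. The other 30 carriers lay between these limits, and the nearest to the upper one were Slc25a16 and Slc25a44 at log2 ratios of 0.57 and 0.56, and both passed it with quantile normalization (0.62 and 0.59) and loess (0.64 and 0.62). At 2-fold, 3 carriers were higher (Slc25a30, Slc25a27 and Slc25a40) and 0 were lower, where 3.47% and 6.74% of all genes were. The median log2 ratio was 0.07 over carriers and -0.06 over all genes, and the range between the lower and upper quartiles of the carriers ran from -0.24 to 0.48, that of all genes from -0.44 to 0.31. The SD between probe sets of a gene, taken from the brightest pair of each gene, was 0.58 on the log2 scale over 5375 genes and 0.63 over the 17 carriers with a pair. A 1.5-fold difference in one probe set is thus about 1 such SD, which leaves out the spread between mice.

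**Figure D1:**
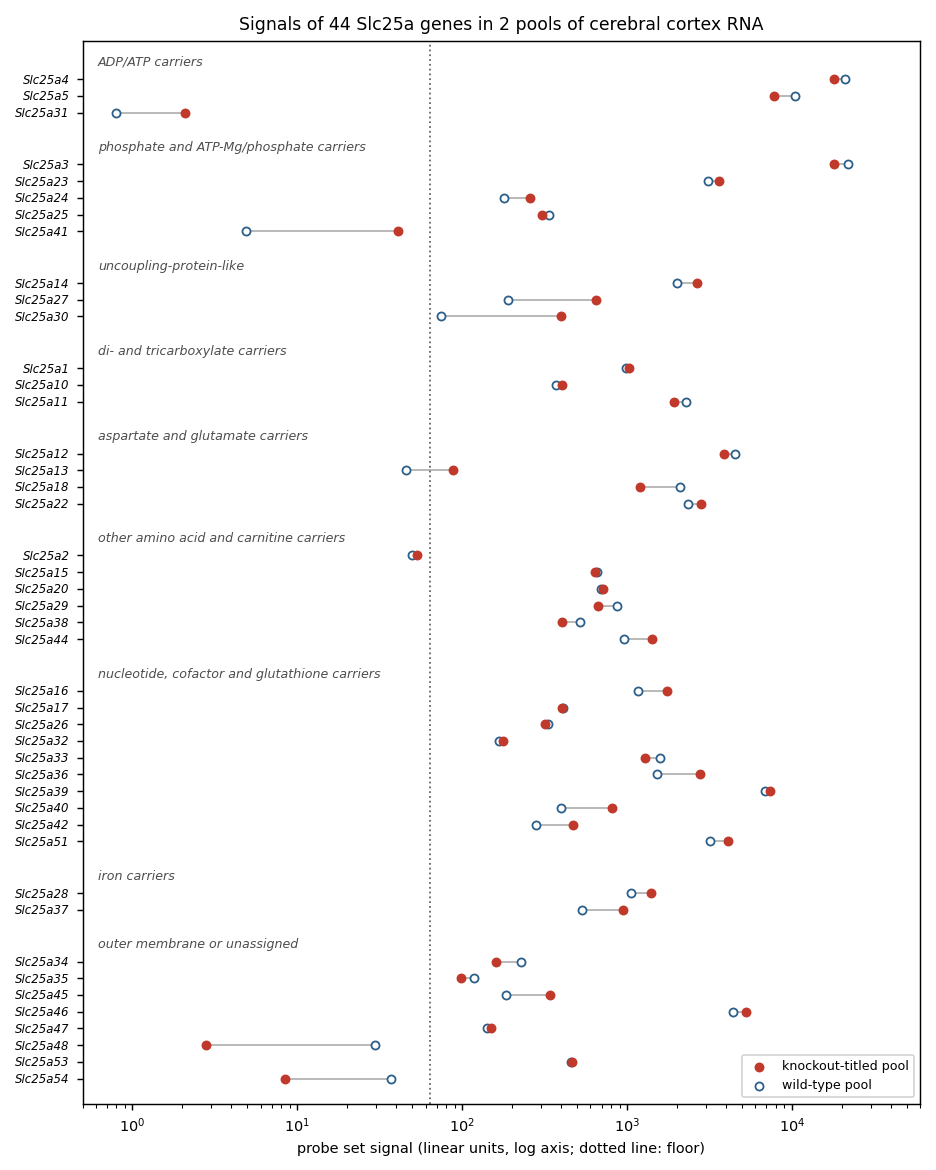
Signal of each carrier's representative probe set in units (log axis) in the knockout-titled pool (filled) and the wild-type pool (open), by role, with the floor of 64.2 units as a dotted line. Slc25a30 and Slc25a27 show the widest gaps among measured carriers, and 5 carriers lie left of the floor in both pools.

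The ADP/ATP carriers return ADP to the matrix and send ATP out, and both measured members lay within 1.5-fold by their brightest probe sets. Slc25a4 gave 17876 units in the knockout-titled pool and 20896 units in the wild-type pool, a log2 ratio of -0.24. Slc25a5, the form found in most tissues and encoded on the X chromosome, gave 7754 units in the knockout-titled pool and 10396 units in the wild-type pool, a log2 ratio of -0.43. With quantile normalization the ratios were -0.05 for Slc25a4 and -0.27 for Slc25a5. The 8 measured probe sets of Slc25a5 ran from -0.56 to 0.26, all within 1.5-fold. A dim probe set of Slc25a4 went far below its other 3, with 67.4 units in the knockout-titled pool and 275.6 units in the wild-type pool. Its ratio of -2.04 stood beside ratios of -0.24 to -0.36 for the others. Slc25a31, the testis form, had 2.1 and 0.8 units in the knockout-titled and wild-type pools, both under the floor.

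The phosphate carriers were within 1.5-fold by their brightest probe sets. Slc25a3, which brings in the phosphate used for ATP synthesis, gave 17903 units in the knockout-titled pool and 21765 units in the wild-type pool, a log2 ratio of -0.29. Its second probe set, much dimmer, gave 263.7 units in the knockout-titled pool and 75.6 units in the wild-type pool, a ratio of 1.79. Both probe sets thus disagreed on the direction. Among the calcium-regulated ATP-Mg/phosphate carriers, Slc25a23 had a log2 ratio of 0.20 and Slc25a24 one of 0.51. Slc25a25 gave -0.17 by its brightest probe set and 1.28 by its second, and the last had 76.6 units in the knockout-titled pool and 15.7 units, below the floor, in the wild-type pool. Slc25a41 was under the floor in both pools, at 40.9 units in the knockout-titled and 4.9 units in the wild-type pool.

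The carriers related in sequence to uncoupling proteins held the family's pair of highest ratios. Slc25a30, a carrier first described in kidney, gave 399.3 units in the knockout-titled pool and 75.0 units in the wild-type pool, 5.28-fold higher in the knockout-titled pool. The wild-type signal was close to the floor of 64.2 units. Its second measured probe set gave 233.7 units in the knockout-titled and 82.8 units in the wild-type pool, 2.80-fold higher. The next reached the floor in the knockout-titled pool alone, at 162.9 units against 40.7 units in the wild-type pool, at least 2.51-fold higher, and the remaining 2 were under the floor in both.

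Slc25a27, a neuronal carrier also called Ucp4, was higher by its brightest probe sets but not by all. It gave 650.5 units in the knockout-titled pool and 190.9 units in the wild-type pool, 3.38-fold higher in the knockout-titled pool. The second probe set gave 229.9 units in the knockout-titled pool and 91.0 units in the wild-type pool, 2.51-fold higher. The other 2 probe sets went the opposite way and had signal over the floor only in the wild-type pool. One had 57.0 units in the knockout-titled pool and 121.0 units in the wild-type pool, at least 1.90-fold lower, and the last had 13.4 units in the knockout-titled pool and 87.6 units in the wild-type pool, at least 1.38-fold lower. The probe sets of Slc25a27 thus split into a pair for each direction. On the RefSeq map Slc25a27 lies on chromosome 17, as does Gnmt, with 51 protein-coding genes between them. Of the 42 measured among these, the knockout-titled pool had 2 higher by 1.5-fold or more (12.5% of all genes were) and 11 lower (18.3% of all genes were), with a median log2 ratio of -0.12. Slc25a14, the third of this group, gave 2658 units in the knockout-titled pool and 2004 units in the wild-type pool, a log2 ratio of 0.40.

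**Figure D2:**
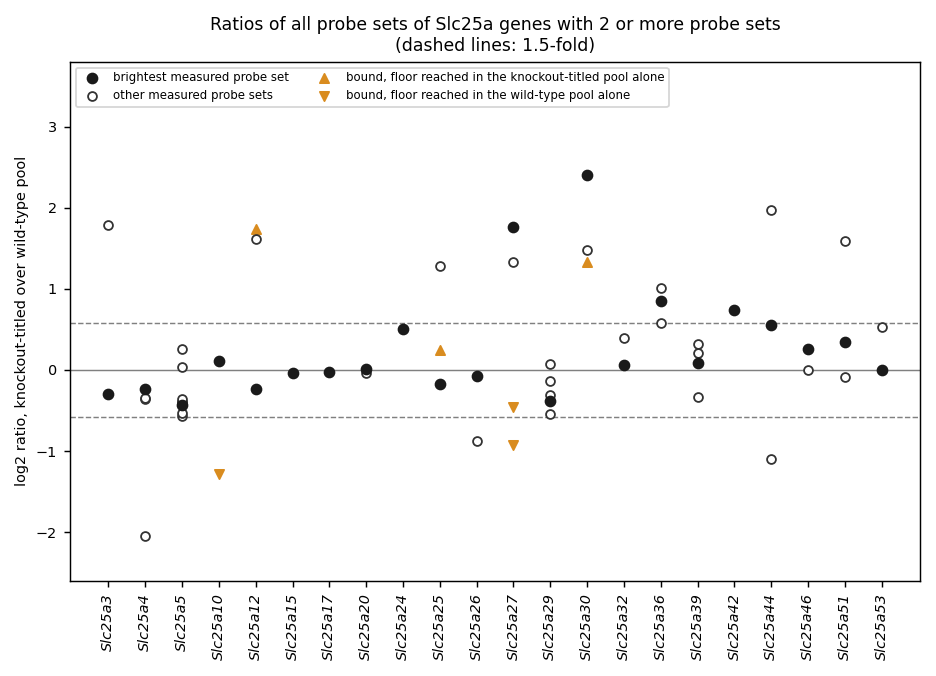
Log2 ratio of knockout-titled over wild-type signal for each probe set of the carriers with 2 or more probe sets and at least 1 measured, with the brightest one filled and triangles at the bound where 1 pool was under the floor. Slc25a30 and Slc25a36, among others, have every measured probe set above 0. Both measured probe sets of Slc25a27 are also above 0 but its bounds lie below, while Slc25a44 has measured probe sets on both sides.

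The carriers of di- and tricarboxylates, which pass citrate, malate and oxoglutarate across the membrane, lay near equal signals in both pools by their brightest probe sets. Slc25a1, the citrate carrier, gave 1026 units in the knockout-titled pool and 989.0 units in the wild-type pool. Slc25a11, the oxoglutarate carrier of the malate-aspartate shuttle, gave 1933 units in the knockout-titled pool and 2263 units in the wild-type pool, a log2 ratio of -0.24. Slc25a10, the dicarboxylate carrier, had a ratio of 0.11, but its second probe set had 47.8 units, under the floor, in the knockout-titled pool against 154.7 units in the wild-type pool, at least 2.43-fold lower.

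Among the aspartate and glutamate carriers, Slc25a18 was the one carrier of the family at least 1.5-fold lower in the knockout-titled pool. Slc25a18, a glutamate carrier found mainly in astrocytes, gave 1193 units in the knockout-titled pool and 2084 units in the wild-type pool, 1.76-fold lower by its single probe set. Of the 8 astrocyte markers, 4 were also at least 1.5-fold lower (18.3% of all genes were) and 0 higher (12.5% of all genes were). These were, by their brightest probe sets, Gfap at a log2 ratio of -1.23, S100b at -1.23, Aqp4 at -1.13 and Slc1a3 at -0.70. By the same measure Slc1a2, Gja1, Aldoc and Aldh1l1 lay between -0.07 and 0.15. Only Gfap and S100b were lower in the knockout-titled pool by every measured probe set. Aqp4, Slc1a3 and the markers within 1.5-fold each had measured probe sets in both directions. The markers summed to 67199 units in the knockout-titled pool and 71784 units in the wild-type pool, with 0 below the floor in either. Lower by 1.5-fold or more were also 4 of 6 microglia markers, with 1 higher, and 1 of 5 oligodendrocyte markers, with 0 higher. The part of astrocyte content in the Slc25a18 ratio was not tested. Slc25a22, the other glutamate carrier, gave 2793 units in the knockout-titled pool and 2328 units in the wild-type pool, a ratio of 0.25.

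The aspartate/glutamate exchanger of neurons, Slc25a12, was inconsistent between its probe sets. Its brightest gave 3873 units in the knockout-titled pool and 4515 units in the wild-type pool, a log2 ratio of -0.23. Its second gave 1130 units in the knockout-titled pool and 367.0 units in the wild-type pool, a ratio of 1.61, and its last was above the floor in the knockout-titled pool alone, at 216.2 units against 57.4 units in the wild-type pool. Slc25a13, the exchanger best known from liver, had 87.5 units in the knockout-titled pool and 45.8 units in the wild-type pool, so that it was at least 1.35-fold higher by a signal just over the floor.

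The remaining amino acid carriers held no gene beyond 1.5-fold by its brightest probe set. Slc25a38, which brings glycine into mitochondria for haem synthesis, gave 404.6 units in the knockout-titled pool and 515.7 units in the wild-type pool, a log2 ratio of -0.36. Slc25a15, the ornithine carrier, and Slc25a20, the carnitine/acylcarnitine carrier, had ratios of -0.04 and 0.02. Slc25a29, a carrier of basic amino acids, had -0.39, with its 5 probe sets between -0.54 and 0.08. Slc25a44, which takes up branched-chain amino acids, was the one carrier with a measured probe set at least 1.5-fold higher and another at least 1.5-fold lower in the knockout-titled pool. Its brightest gave 1421 units in the knockout-titled pool and 956.6 units in the wild-type pool, a ratio of 0.56. Its second gave 1611 units in the knockout-titled pool and 408.1 units in the wild-type pool, a ratio of 1.97. Its dimmest gave 105.4 units in the knockout-titled pool and 224.0 units in the wild-type pool, a ratio of -1.10. Such opposite pairs were seen in 1 of the 17 carriers with 2 or more measured probe sets, and in 5.75% of all such genes. Slc25a2, an ornithine carrier, was under the floor with 53.5 units in the knockout-titled pool and 49.8 units in the wild-type pool.

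Among the nucleotide, cofactor and glutathione carriers, the knockout-titled pool had 3 of 10 measured higher by 1.5-fold or more and 0 lower, where 12.5% and 18.3% of all genes were. Slc25a36, a carrier of pyrimidine nucleotides, gave 2753 units in the knockout-titled pool and 1519 units in the wild-type pool, 1.80-fold higher in the knockout-titled pool. Its other probe sets had log2 ratios of 1.01 and 0.58, so the 3 agreed in direction and nearly in size. Slc25a40, a mitochondrial glutathione carrier, gave 808.6 units in the knockout-titled pool and 399.7 units in the wild-type pool, 2.01-fold higher by its single probe set. Its paralog Slc25a39, which has the same role, gave 7355 units in the knockout-titled pool and 6895 units in the wild-type pool, a ratio of 0.08, with its 4 measured probe sets between -0.33 and 0.32. Slc25a42, which imports coenzyme A, gave 469.9 units in the knockout-titled pool and 279.5 units in the wild-type pool, 1.67-fold higher.

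Carriers tied to the methyl group and folate pathways around Gnmt lay within 1.5-fold by their brightest probe sets. Slc25a26, which imports S-adenosylmethionine, gave 316.3 units in the knockout-titled pool and 329.6 units in the wild-type pool, a log2 ratio of -0.07. Its second probe set, near the floor, gave 71.4 units in the knockout-titled pool and 130.4 units in the wild-type pool, a ratio of -0.88. Slc25a32, the mitochondrial folate carrier, gave 177.1 units in the knockout-titled pool and 167.8 units in the wild-type pool, a ratio of 0.07 that turned to -0.26 with quantile normalization and -0.04 with loess, and its second measured probe set had 0.40. The cofactor carrier Slc25a51, which imports NAD, had 0.34, with its dimmer probe sets at -0.08 and 1.59. Slc25a16, Slc25a33 and the peroxisomal carrier Slc25a17 had ratios of 0.57, -0.33 and -0.02.

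Of the 2 iron carriers, 1 was at least 1.5-fold higher in the knockout-titled pool and the other lay within 1.5-fold. Slc25a37, known as mitoferrin and needed for haem synthesis in red cell precursors, gave 948.3 units in the knockout-titled pool and 533.6 units in the wild-type pool, 1.76-fold higher by a single probe set. Slc25a28, the mitoferrin found in most tissues, gave 1388 units in the knockout-titled pool and 1054 units in the wild-type pool, a log2 ratio of 0.39. Among the carriers of the outer membrane or without an assigned role here, Slc25a45 gave 340.6 units in the knockout-titled pool and 185.0 units in the wild-type pool, 1.83-fold higher by a single probe set. Slc25a46, an outer membrane protein that acts in mitochondrial fusion and fission, gave 5296 units in the knockout-titled pool and 4378 units in the wild-type pool, with ratios of 0.26 and -0.01 from its 2 probe sets. By their brightest probe sets, Slc25a34, Slc25a35, Slc25a47 and Slc25a53 lay between -0.50 and 0.07, while the second probe set of Slc25a53 had 0.53. With quantile normalization Slc25a34 and Slc25a35 had -0.81 and -0.68. Slc25a48 and Slc25a54 were under the floor in both pools, with up to 7.2 units for Slc25a48 and 8.5 units for Slc25a54 in the knockout-titled pool and up to 29.6 units and 37.1 units in the wild-type pool.

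Some carriers are neighbours on the RefSeq map with 0 protein-coding genes between them. Of these, Slc25a29 and Slc25a47 had log2 ratios of -0.39 and 0.07, though Slc25a47 had -0.31 after quantile normalization and -0.06 after loess. For Slc25a23 and Slc25a24, with ratios of 0.20 and 0.51, the neighbours Slc25a41 and Slc25a54 were not measured.

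**Figure D3:**
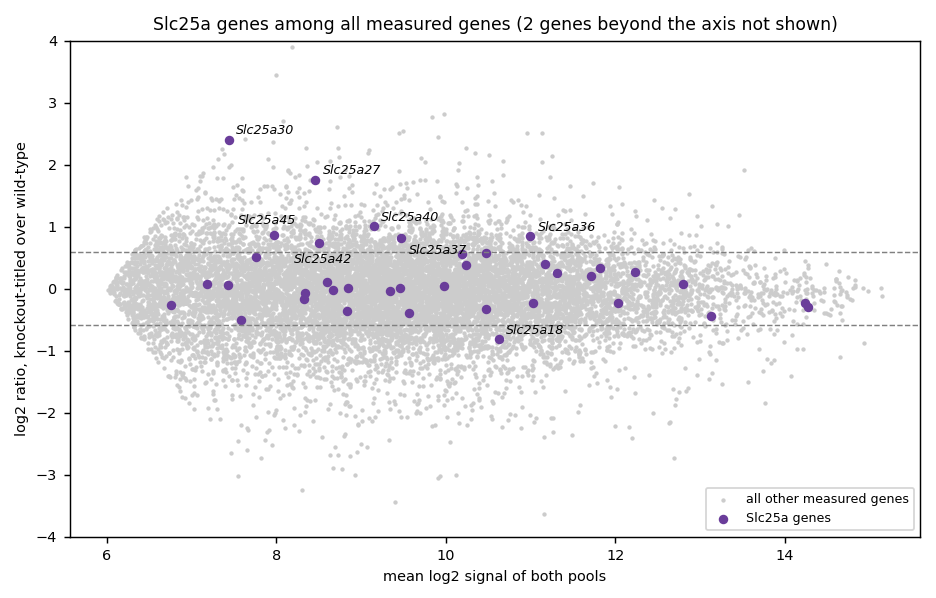
Log2 ratio of knockout-titled over wild-type signal against the mean log2 signal of both pools, for carriers (purple, the 8 beyond 1.5-fold named) and all other measured genes (grey); dashed lines mark 1.5-fold. The highest carriers, Slc25a30 and Slc25a27, have low to moderate signals, and the 3 carriers furthest right lie just below 0.

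Over the 38 carriers, the ratio correlated with the mean log2 signal at r = -0.27 (Pearson) and rho = -0.15 (Spearman), and at 0.30 and 0.33 with the log2 of the gene's genomic span. Over all genes with a span the values were -0.03 and -0.03 with signal, and 0.11 and 0.11 with span. Genes share both arrays and are not independent, so these are descriptions. With all genes split into 4 equal bins by mean signal, 2 of 7 carriers in the dimmest bin were at least 1.5-fold higher, where 14.8% of all its genes were. In the next bin up 3 of 10 carriers were, where 13.4% of all its genes were. Above that, 1 of 9 carriers was, where 12.5% were. In the brightest bin 1 of 12 carriers was, where 9.14% of all its genes were.

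Probe sets of the same carrier often differed in ratio. Over probe sets, 15 of 71 measured were at least 1.5-fold higher (21.1%, where 16.5% of all were) and 4 at least 1.5-fold lower (5.63%, where 18.1% of all were). Among the 17 carriers with 2 or more measured probe sets, every measured one was at least 1.5-fold higher for Slc25a30 and, leaving out the pair under the floor in the knockout-titled pool, Slc25a27, where 3.83% of all such genes were, and all were lower for 0 carriers, where 6.64% were. A dimmer probe set stood at least 1.5-fold above the brightest in ratio for 6 carriers (Slc25a3, Slc25a5, Slc25a12, Slc25a25, Slc25a44 and Slc25a51), or 35.3%, where 29.9% of all such genes did. One stood at least 1.5-fold below it for 4 carriers (Slc25a4, Slc25a26, Slc25a30 and Slc25a44), or 23.5%, where 22.2% did. The positions of the probes along the transcripts were not used here.

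Carriers are made in the cytosol and brought to the inner membrane by import receptors, small chaperones and a translocase. Of 13 measured import genes, 3 were at least 1.5-fold lower (18.3% of all genes were) and 0 higher, with a median log2 ratio of -0.35. Some probe sets have a suffix in their name, a mark of possible binding to more than 1 transcript. With these left out, 10 import genes were measured, with a median of -0.11. Of the 10, 0 were lower by that much (18.1% of all genes were) and 1, Timm9, was higher (13.1% of all genes were). Timm8b and Timm13, each with a single measured probe set that carries a suffix, gave no value in that setting. Timm8b, a small chaperone of the space between the membranes, gave 720.9 units in the knockout-titled pool and 3072 units in the wild-type pool, 4.30-fold lower. Timm9, a chaperone that escorts carriers, gave 217.6 units in the knockout-titled pool and 428.7 units in the wild-type pool, a ratio of -0.99, but its other probe set had 0.82. Timm13, a partner of Timm8 proteins, had -0.86. The highest were Timm29 and Agk, subunits of the carrier translocase, at 0.43 and 0.33, and Timm10b at 0.04, although the other probe set of Agk had -0.80.

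Among other mitochondrial transporters and channels, the knockout-titled pool had 5 of 19 measured genes lower by 1.5-fold or more (18.3% of all genes were) and 1 higher (12.5% of all genes were), with a median of -0.10. Mpc1, a subunit of the pyruvate carrier, gave 2107 units in the knockout-titled pool and 5578 units in the wild-type pool, 2.67-fold lower. Mpv17, an inner membrane protein, had a log2 ratio of -0.98, and Smdt1, a subunit of the calcium uniporter, one of -0.93. Sfxn4 and Sfxn2, of the sideroflexin family, had 0.87 and 0.47, and the calcium uptake regulator Micu2 had 0.32. The channels Vdac1, Vdac2 and Vdac3 of the outer membrane had 0.02, 0.00 and 0.00. The 4 enzymes of the malate-aspartate shuttle, which work with Slc25a11 and Slc25a12, lay between -0.18 for Got2 and 0.39 for Mdh1. The probe sets of Got2 ran from -0.18 to 0.44 and those of Mdh1 from -0.32 to 0.95. Differences between these lists and the carriers were not tested.

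**Figure D4:**
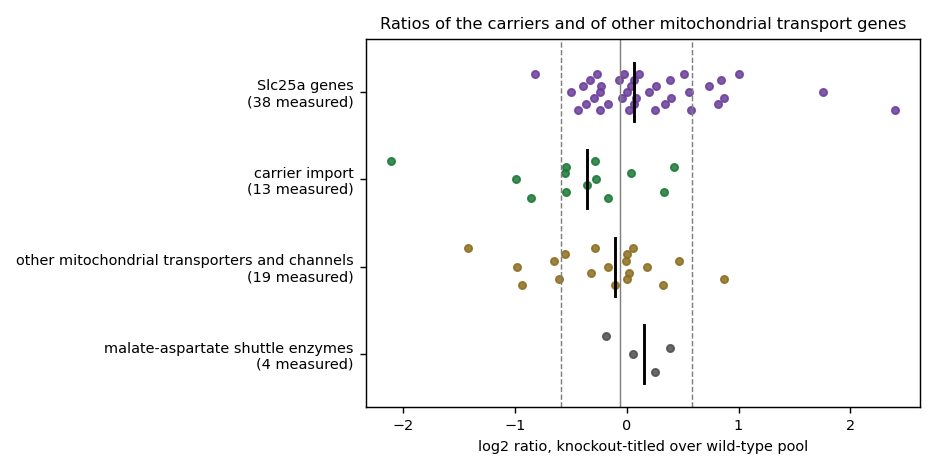
Log2 ratio of knockout-titled over wild-type signal for the measured carriers, carrier import genes, other mitochondrial transporters and channels, and malate-aspartate shuttle enzymes, 1 point per gene, with a black bar at each median, a grey line at the median of all genes (-0.06) and dashed lines at 1.5-fold. The carriers' median is 0.07 and that of the import genes -0.35.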

How the data were processed

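Transcript signals were measured on 2 Affymetrix arrays, 1 per genotype, each with RNA of cerebral cortex pooled from 3 mice. Per the labels' protocols, Trizol was used for extraction, and 5 micrograms of RNA went into biotin labelling of cRNA. The deposited values are linear intensities, 1 per probe set. GCOS is named in the submitters' processing notes, without a version or signal algorithm. Both arrays share a 2%-trimmed mean of 500.0, a sign of scaling before deposit.

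One gene symbol was listed for 34945 of the 45037 probe sets that are no controls, several for 932 and none for 9160. Current symbols came from RefSeq (GRCm38.p6) for 34741 of the first kind, matched on gene ID. RefSeq also gave gene spans, classes, neighbours and promoters. The floor, centring (shift 0.01) and choice of probe set are given with the results. Where 1 pool was under the floor, the other's signal over the floor is given as a bound. Members, lists and named genes were chosen with earlier results of these data known. Named in full were carriers beyond 1.5-fold, those above the floor in 1 pool, the 5 brightest, those with opposite probe sets, and Slc25a26, Slc25a32 and Slc25a38; other probe sets are described in addition. From the other lists up to 3 genes at either end were named, and further ones were chosen after their values were seen. Microglia (4 of 6 lower, 1 higher), oligodendrocyte (1 of 5 lower, 0 higher), endothelium and choroid plexus markers (0 of 3 and 0 of 5 beyond 1.5-fold) were also listed. Neuron markers had 1 of 8 at least 1.5-fold higher and 1 lower. Of all genes, 12.5% were higher by that much and 18.3% lower.

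The calculations were tested on simulated data. Alternatives covered the floor, scaling and probe set choice. No p-values were calculated with 1 array per group, and precision is limited by the number of arrays. Software was matplotlib 3.10.9, statsmodels 0.14.6 (loess), scipy 1.17.1, pandas 2.3.3 and numpy 2.4.6 under Python 3.11.15.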

Additional observations from a re-analysis of the deposited data

How the results depend on the processing

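The 8 carriers beyond 1.5-fold kept their direction and stayed beyond 1.5-fold in every alternative that gave a value. Each gene had 7 to 9 such values, and many were bound to be close to those reported. Floor and centring settings move the ratios of all probe sets by the same amount. Probe set choice cannot change the ratios of Slc25a18, Slc25a37, Slc25a40, Slc25a42 and Slc25a45, with 1 measured probe set each. With the floor at the 60th percentile, Slc25a27, Slc25a30 and Slc25a45 gave no value. Log2 ratios ran between -0.92 and -0.75 for Slc25a18 and between 1.49 and 2.41 for Slc25a30. The count of carriers at least 1.5-fold higher was 6 to 10, against 7 as reported. Between 17 and 44 carriers were measured in these settings, and 11.0% to 19.4% of all genes were higher. The count at least 1.5-fold lower, 1 as reported, was 4 of 44 without a floor and 3 of 38 with quantile normalization. It was 2 of 38 with loess and 2 of 33 without suffixed probe sets. In these 4 settings 27.2%, 21.5%, 17.5% and 18.1% of all genes were lower. The median over carriers, 0.07 as reported, was -0.03 without a floor, 0.21 with the median of all probe sets and 0.40 with the second brightest probe set, which only 17 carriers have. The median of all genes under these settings was -0.14, -0.04 and -0.01. The cause was not tested. Among carriers within 1.5-fold, Slc25a3 turned to 1.79 and Slc25a4 to -2.04 without suffixed probe sets, which left only a dim probe set for each. Without a filter at the floor, or with it at the 25th percentile, Slc25a13 had ratios of 0.82 and 0.88. No paired analysis was possible because each group has 1 array.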
